A study of Chlorocebus sabaeus with 18 samples.

Results

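The events described here are the 776 splicing events that the authors' EventPointer tables label "Alternative 3' Splice Site", out of 6311 events in all (12.3%). They were chosen by that label alone, and the same 776 events stand in each of the 5 tables. They lie in 705 genes on 24 chromosomes, and 63 of those genes hold 2 or 3 of them. The files give genes by Ensembl identifiers without symbols, so events are named by their position on the human GRCh38 genome.

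The cells were COS-7, a fibroblast-like line from the kidney of the African green monkey. Total RNA depleted of ribosomal RNA was sequenced from 18 samples in 6 groups of 3. CTL was control COS-7. In CGG the cells carried a transfected FMR1 5′ UTR with 60 CGG repeats. The splicing factor TRA2A was overexpressed in GFP_TRA and knocked down in siTRA. CGG_TRA and CGG_siTRA combined the repeat with the overexpression and with the knockdown. No group with an empty vector or a control siRNA was analysed here, so transfection itself cannot be told apart from the construct in a comparison with CTL. In CGG_siTRA vs CGG, adding an siRNA likewise cannot be told apart from the knockdown. No label states that the 3 samples of a group were grown separately. The p-values thus reflect the spread of these samples alone, and that spread may be technical. Titles of CGG_siTRA samples name different rounds, which were not modelled here.

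An intron ends at an AG dinucleotide, the 3′ splice site or acceptor, which is read together with the branch point and the polypyrimidine tract by SF1, the U2AF heterodimer and the U2 snRNP. Where a pair of acceptors competes, the upstream choice lengthens the exon by the stretch between them, and acceptors in tandem can add or drop a single codon. TRA2A is an SR-like protein that binds purine-rich exonic enhancers and promotes use of nearby splice sites. Expanded CGG repeats in the FMR1 leader underlie the tremor and ataxia syndrome FXTAS, and the repeat RNA is known to hold splicing proteins.

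The label was first checked against the strand of each gene and the exon bins, which are the non-overlapping exon pieces that DEXSeq counts. The label did not follow strand. On minus-strand genes (486 events), a bin of the gene adjoined the lower edge of the interval alone in 268 events and the upper edge alone in 21. The lower edge is the acceptor end on that strand. On plus-strand genes (289 events), a bin again adjoined the lower edge alone in 123 events and the upper edge alone in 26, but there the lower edge is the donor (5′ splice site) end. For 1 event the gene had no bins. The events labelled "Alternative 5' Splice Site" were the mirror image: on plus-strand genes a bin adjoined the upper edge alone in 267 and the lower edge alone in 26. Bins adjoined both edges in 126 minus-strand and 81 plus-strand events and neither edge in 71 and 59, so these gave no side. Where a bin adjoined 1 edge alone, most minus-strand events fitted the label and most plus-strand events did not. Below, events are called acceptor-side or donor-side by the strand of the gene and the lower edge. This includes the 26 plus-strand and 21 minus-strand events with a bin at the upper edge alone. It also includes the events with bins at both edges or neither, where the side rests on the strand alone.

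In 592 of the 776 events a bin inside the interval adjoined the flanking exon, and that adjoining bin was taken as the alternative part. Of these, 393 were on the acceptor side and 199 on the donor side. In 113 further events the site lay inside an exon bin, in 64 no bin adjoined the edge, and in 6 a bin filled the interval, so no alternative part could be counted for them. All 592 adjoining bins passed the filter on low counts, and 103 of them belonged to runs of bins that covered the whole interval, where a retained intron would be counted too. For 104 of the 592 the bin belonged to overlapping genes counted together, where reads cannot be assigned to 1 gene.

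The 2 sides differed in the length of the alternative part, which the label did not use. On the acceptor side 144 of 393 adjoining bins (36.6%) were exactly 3 bases long, the length of a codon and the spacing of tandem acceptors. On the donor side 7 of 199 (3.52%) were. The median length was 14 bases on the acceptor side and 33 bases on the donor side. A length divisible by 3 was found in 69.5% of the acceptor-side bins and 54.8% of the donor-side bins. Without the 3-base bins these shares were 51.8% and 53.1%. Among the events labelled as alternative 5′ splice sites, 161 of 395 acceptor-side bins (plus-strand genes) and 2 of 207 donor-side bins were 3 bases long, so the 3-base class followed the strand-aware side and not the label.

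**Figure D1:**
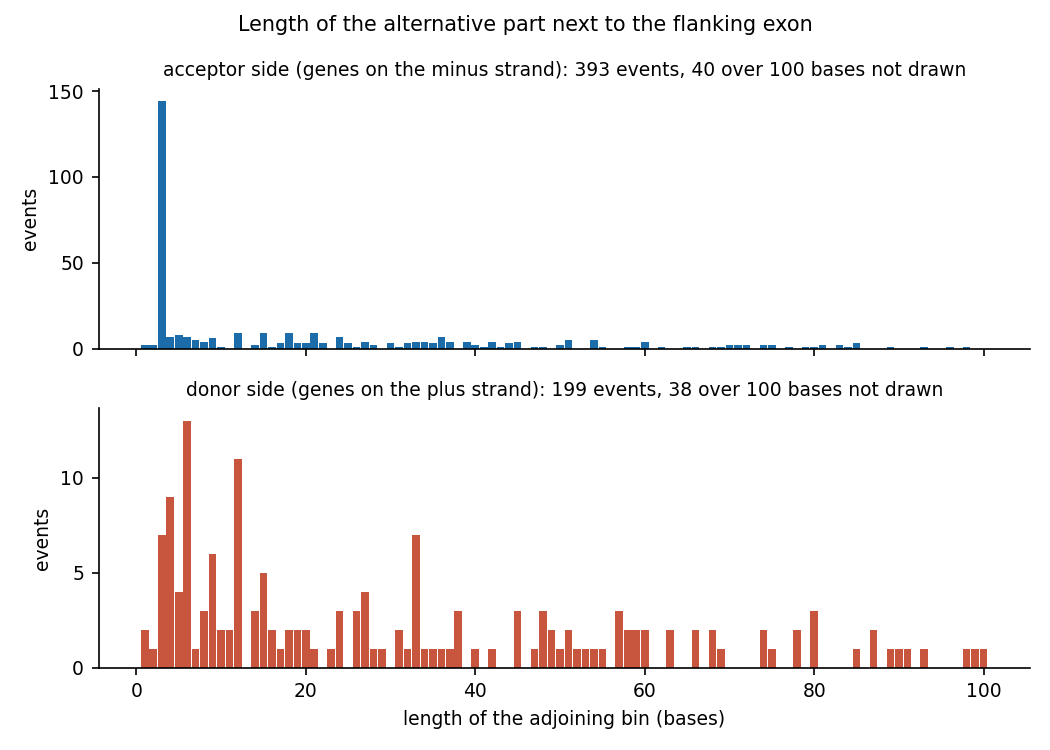
Number of events (y axis) by length of the adjoining bin in bases (x axis, up to 100 bases), for the 393 acceptor-side and 199 donor-side events; the y axes differ. The acceptor side has a single peak of 144 events at 3 bases, and the donor side has no such peak.

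Bin counts exist for 15 libraries, 3 for each group but CGG_TRA, with 121142115 to 203957869 counts summed over bins per library. Reads that span bins add to every bin they touch, and a bin of 3 bases still collects all reads that cross it. The adjoining bins had a median of 251 normalised counts in CTL and the flanking bins 674. The identifier ENSG00000164548.10 was picked by its values as the gene that rose most in GFP_TRA among those lower in both knockdown groups. Its normalised count over bins was 16913 to 17234 in CTL, 15675 to 17032 in CGG, 187106 to 221793 in GFP_TRA, 3117 to 4916 in siTRA and 4020 to 4408 in CGG_siTRA, the directions the labels give for TRA2A, which the way it was picked fixes in part. Libraries within a group are lettered a to c. Library siTRA b stood apart: its ratio of adjoining to flanking bin differed from the mean of the other 2 siTRA libraries by more than 0.5 on the log2 scale in 68 of 592 events (11.5%), against 1.18% to 5.91% in the other 14 libraries. Calls in siTRA vs CTL are therefore given with and without it. The authors' deposited tables could not be recomputed without it.

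The median use of the acceptor-side parts differed little between the groups. Adjoining bins on the acceptor side had a median of 49.9 to 50.7 counts per 100 flanking-bin counts in the CTL libraries, 50.4 in each CGG library, 50.3 to 50.9 in GFP_TRA, 49.7 to 50.5 in siTRA and 50.4 to 52.2 in CGG_siTRA. For the 3-base acceptor parts alone the library medians were 42.0 to 42.1 in CTL, 41.5 to 42.3 in CGG, 42.7 to 44.5 in GFP_TRA, 41.9 to 43.6 in siTRA and 43.2 to 43.8 in CGG_siTRA. On the donor side they were 44.8 to 46.2 in CTL, 44.6 to 46.2 in CGG, 43.5 to 45.0 in GFP_TRA, 46.5 to 47.2 in siTRA and 44.0 to 47.1 in CGG_siTRA. The 3 siTRA medians on the donor side lay above the 3 CTL medians, while those of CGG_siTRA there spanned CTL. For the 3-base acceptor parts the GFP_TRA and the CGG_siTRA medians lay above the CTL medians. These differences were not tested.

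The EventPointer tables give a change in percent spliced in (PSI), as a fraction, with the authors' p-value for each event. The p-values were adjusted here by Benjamini-Hochberg over the 6311 events of a table, and an event with an adjusted p under 0.05 is called. The sign was read as first group minus second, with a positive value for more of the longer form. Read so, it had the same sign as the ratio of adjoining to flanking bin in 27 of 28 events with an authors' p under 0.05 in CGG vs CTL, 21 of 22 in GFP_TRA vs CTL and, for CGG_siTRA vs siTRA, in 33 of 36, leaving out events at a change of 0. The groups of the other 2 tables could not be checked this way.

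**Figure D2:**
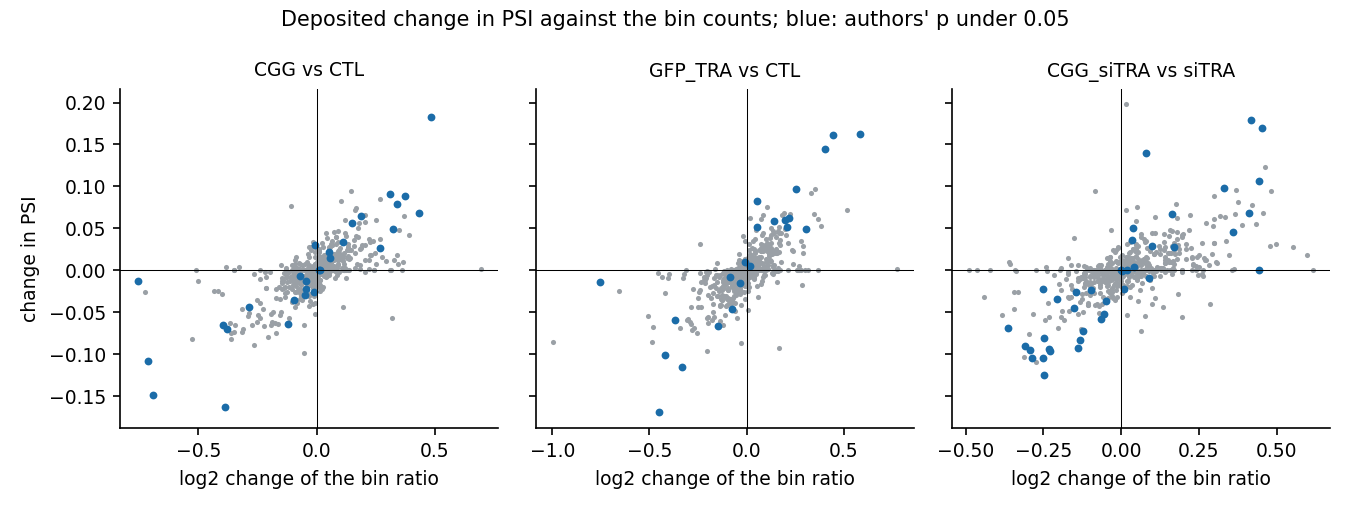
Change in PSI in the authors' deposited tables (y axis) against the log2 change of the ratio of adjoining to flanking bin (x axis) for the 592 events with such a bin, in 3 comparisons; blue points have an authors' p under 0.05. Most blue points lie at the lower left and upper right of the origin, 27 of 28 in CGG vs CTL.

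In every table the alternative sites changed little. The median size of the change in PSI was between 0.0083 and 0.0098 over the 776 events, and it was between 0.0086 and 0.0096 over all 6311. For 92 of the 776 events the deposited change was 0 in all 5 tables. In 749 of the 776 events the change stayed under 0.1 in all 5 tables. Over the tables there were 16 calls, in 11 events, and 5 events were called in 2 tables. None was called in 3 or more.

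**Figure D3:**
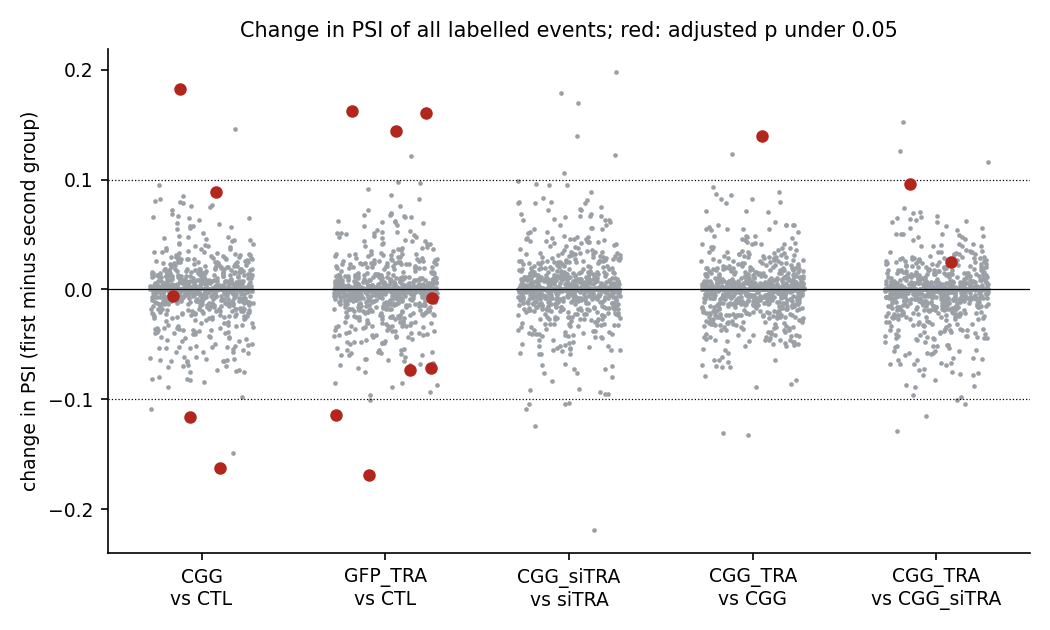
Change in PSI (y axis, first minus second group) of each of the 776 events in the 5 comparisons of the authors' deposited tables; red points have an adjusted p under 0.05 and dotted lines mark 0.1 either way. The red points number 5, 8, 0, 1 and 2 from left to right, and most grey points lie within 0.05 of 0.

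CGG vs CTL asks what the repeat does in cells with unaltered TRA2A. Of the 776 events 5 (0.644%) were called in the authors' deposited table, against 1.33% of all events. The members called were 2 higher (0.285% of all events were) and 3 lower (0.998% of all). An unadjusted p under 0.05 was held by 39 members (5.03%, against 7.68% of all) and a change of at least 0.1 by 6 (0.773%, against 2.17%). Both called rises were on the acceptor side, at chr4:113509672-113513328 and chr5:157789513-157791703. The 3 called falls were on the donor side, at chr8:23566336-23568322, chr4:109526249-109527322 and chr12:56155493-56157468. At the first 2 of these the side rests on the strand of the gene alone. Members with an unadjusted p under 0.05 were not divided so: 11 were higher and 6 lower on the acceptor side, and 8 higher and 12 lower on the donor side.

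The largest rise was in the event chr4:113509672-113513328 of the minus-strand gene ENSG00000145349.16, whose alternative part is 3 bases at an acceptor. The 3-base part had 30.4, 29.3 and 31.2 counts per 100 flanking counts in CTL and 41.2, 40.4 and 46.1 in CGG. All 3 CGG libraries were above all CTL libraries. Its PSI rose by 0.182 in the authors' deposited table (adjusted p = 0.00021). With limma on the log2 ratio the rise was 0.49 ± 0.07 (SE, adjusted p = 0.00788 over 1193 events of both labels). With edgeR diffSpliceDGE over all bins it was 0.52 ± 0.13 (SE), which did not pass (adjusted p = 0.117). The authors' deposited DEXSeq table called this bin (0.53, adjusted p = 7.56e-06). The limma call was lost without CTL a (adjusted p = 0.0552).

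At chr5:157789513-157791703, a minus-strand event with a 54-base adjoining bin, that bin had 24.8, 26.0 and 27.0 counts per 100 flanking counts in CTL and 32.9, 33.2 and 34.9 in CGG. The groups did not overlap. The change in PSI of 0.088 was called in the authors' deposited table (adjusted p = 0.00514), while limma on the ratio gave 0.37 ± 0.10 (SE, adjusted p = 0.277). The bin was called in the authors' deposited DEXSeq table (0.34, adjusted p = 4.85e-05) and not by edgeR (0.36 ± 0.11, SE, adjusted p = 0.658). The knockdown with the repeat had 33.8, 28.4 and 23.5, which spanned both groups.

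At chr8:23566336-23568322 the plus-strand donor-side bin of 42 bases had 53.1, 45.4 and 45.6 counts per 100 flanking counts in CTL, 31.2, 38.4 and 40.8 in CGG and 33.8, 36.6 and 34.5 in GFP_TRA. Both treated groups lay below CTL without overlap. PSI in the authors' deposited tables fell by 0.163 in CGG (adjusted p = 0.00536) and fell by 0.169 in GFP_TRA (adjusted p = 0.00258), both against the same CTL libraries. By limma on the ratio the changes of -0.39 ± 0.14 and -0.45 ± 0.14 (SE) did not pass (adjusted p = 0.589 and 0.315). Nor did the bin pass in the authors' deposited DEXSeq tables (adjusted p = 0.842 and 0.72). Bins cover this interval from end to end.

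The smallest p of the table was at chr4:109526249-109527322, in the plus-strand gene ENSG00000138802.11, where the site lies inside an exon bin and its use cannot be counted apart. Its PSI in the authors' deposited tables fell by 0.116 in CGG (adjusted p = 2.54e-06) and fell by 0.072 in GFP_TRA (adjusted p = 0.0102). At chr12:56155493-56157468 the called falls were very small, by 0.006 in CGG (adjusted p = 0.0311) and by 0.007 in GFP_TRA (adjusted p = 0.00554). That bin is deep, with 1622 to 1963 normalised counts in the CTL, CGG and GFP_TRA libraries, and belongs to overlapping genes counted together. It had 109, 107 and 112 counts per 100 flanking counts in CTL, 104, 103 and 107 in CGG and 102, 104 and 104 in GFP_TRA. The authors' deposited DEXSeq tables called it lower in CGG (-0.21, adjusted p = 9.84e-11) and in GFP_TRA (-0.24, adjusted p = 4.35e-15). Neither edgeR nor limma on the ratio called it.

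A 3-base acceptor part at chr15:72250954-72251207, in ENSG00000137817.16 counted together with an overlapping gene, was lower in CGG. It had 29.1, 27.0 and 26.0 counts per 100 flanking counts in CTL, 17.5, 13.9 and 19.4 in CGG, 24.7, 25.6 and 25.4 in GFP_TRA, 27.8, 25.9 and 23.9 in siTRA and 23.0, 18.7 and 20.6 in CGG_siTRA. The CGG libraries lay below all CTL libraries, and the CGG_siTRA libraries lay below all siTRA libraries. By limma on the ratio the fall in CGG vs CTL passed (-0.69 ± 0.11, SE, adjusted p = 0.0138) and that in CGG_siTRA vs siTRA did not (-0.31 ± 0.11, SE, adjusted p = 0.421). The first was lost without CTL a (limma adjusted p = 0.0779), and edgeR did not call it (-0.74 ± 0.24, SE, adjusted p = 0.405). In the authors' deposited tables the changes in PSI were -0.149 (adjusted p = 0.083) and -0.104 (adjusted p = 0.861). For CGG vs CTL their DEXSeq table did not call the bin (-0.74, adjusted p = 0.101).

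No adjoining bin passed edgeR diffSpliceDGE in CGG vs CTL, where 0.238% of 264710 bins did. Of the 592 adjoining bins 18 had an unadjusted p under 0.05, as did 3.45% of all bins. By other tools 0 passed limma diffSplice, 3 passed limma on the ratio (1 higher, 2 lower; 0.335% of 1193) and 24 were under 0.05 in the authors' deposited DEXSeq table (2.0% of its bins). When only the 6 libraries of the pair were fitted, 12 adjoining bins passed edgeR, 6 in each direction, as did 3201 of all 264710 bins. Over all bins 3383 passed limma diffSplice.

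GFP_TRA vs CTL asks what raised TRA2A does without the repeat. Of the 776 events 8 (1.03%) were called in the authors' deposited table, against 1.22% of all events. The members called were 3 higher (0.428% of all events were) and 5 lower (0.776% of all). An unadjusted p under 0.05 was held by 29 members (3.74%, against 8.18% of all) and a change of at least 0.1 by 7 (0.902%, against 2.25%). By the rule given above, the 3 rises were on the acceptor side and the 5 falls on the donor side. Members with an unadjusted p under 0.05 were less divided: 10 higher and 2 lower on the acceptor side, 7 higher and 10 lower on the donor side. For the falls at chr1:203861743-203862182, chr17:35824099-35833907, chr4:109526249-109527322 and chr8:23566336-23568322 the side rests on the strand of the gene alone. Because CTL is shared, these calls are not independent of those in CGG vs CTL: 4 of the 8 were called there too, at the 2 events of chromosome 4, chromosome 8 and chromosome 12 given above.

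The event at chr4:139072003-139073454 of the minus-strand gene ENSG00000109381.19 was called in 2 of the 3 tables with raised TRA2A. Its 36-base adjoining acceptor bin had 26.8, 26.7 and 25.6 counts per 100 flanking counts in CTL and 35.9, 34.3 and 37.8 in GFP_TRA. It had 31.1, 30.4 and 28.7 in CGG, 30.1, 24.0 and 33.8 in siTRA and 31.8, 29.0 and 30.8 in CGG_siTRA. The GFP_TRA libraries were above every other library. PSI in the authors' deposited tables rose by 0.161 in GFP_TRA vs CTL (adjusted p = 5.01e-05) and by 0.139 in CGG_TRA vs CGG (adjusted p = 0.00263), comparisons that share no sample. The change in CGG_TRA vs CGG_siTRA was 0.116 (adjusted p = 0.159). By limma on the ratio the difference between GFP_TRA and CTL was 0.45 ± 0.10 (SE, adjusted p = 0.13). The authors' deposited DEXSeq table called the bin in GFP_TRA vs CTL (0.34, adjusted p = 0.0251), and edgeR did not.

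A 5-base acceptor part at chr5:65452216-65452707 had 33.3, 27.6 and 34.6 counts per 100 flanking counts in CTL and 46.9, 45.8 and 51.3 in GFP_TRA. The groups did not overlap, on 37.2 to 69.5 normalised counts in the part. The authors' deposited table called its rise in PSI of 0.163 (adjusted p = 0.0228), and in CGG_TRA vs CGG_siTRA the change was 0.153 (adjusted p = 0.324). Limma on the ratio gave 0.58 ± 0.22 for GFP_TRA vs CTL (SE, adjusted p = 0.478). The bin was called there in the authors' deposited DEXSeq table (0.66, adjusted p = 0.00952) and not by edgeR (adjusted p = 0.62).

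The 3-base part at chr4:113509672-113513328 had 42.8, 36.7 and 41.1 counts per 100 flanking counts in GFP_TRA, above all CTL libraries. PSI was higher by 0.144 in the authors' deposited table (adjusted p = 0.00768), and limma on the ratio gave 0.40 ± 0.07 (SE, adjusted p = 0.0319). That limma call held in 1 of 6 fits that left out a library. The authors' deposited DEXSeq table called the bin (0.46, adjusted p = 4.22e-05), and edgeR did not (adjusted p = 0.227). Donor-side falls were also called at chr1:203861743-203862182, where PSI fell by 0.115 (adjusted p = 0.00772), and at chr17:35824099-35833907, where it fell by 0.073 (adjusted p = 0.000484). At the chromosome 1 event the 106-base adjoining bin had 29.4, 24.7 and 21.6 counts per 100 flanking counts in CTL and 21.1, 20.7 and 18.1 in GFP_TRA. The direction there differed between the tests: limma on the ratio gave -0.33 ± 0.34 and edgeR, which sets the bin against its whole gene, 0.10 ± 0.20 (SE), with adjusted p of 0.939 and 1. The authors' deposited DEXSeq table did not call that bin (0.11, adjusted p = 0.954).

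No adjoining bin passed edgeR diffSpliceDGE in GFP_TRA vs CTL, against 0.357% of all bins. An unadjusted p under 0.05 was held by 18 of the 592, against 3.74% of all bins. By other tools 1 passed limma diffSplice, 1 limma on the ratio (0.168% of 1193), 3 edgeR fitted on the pair of groups, and 14 the authors' deposited DEXSeq table (1.32% of its bins).

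For the knockdown alone there is no EventPointer table here, so siTRA vs CTL was compared on the bins. With edgeR diffSpliceDGE 4 of the 592 adjoining bins passed, against 0.477% of all bins. They were 3 higher (0.306% of all bins) and 1 lower (0.172%), and 51 of the 592 had an unadjusted p under 0.05, against 6.39% of all bins. Without siTRA b those 51 became 29, and the count over all bins went from 16928 to 10869. The 4 bins called by edgeR were the 3-base acceptor part on chromosome 4, a 727-base acceptor-side bin on chromosome 13, and donor-side bins on chromosomes 3 and 5. Limma on the ratio called 2 (0.335% of 1193), and 22 were under 0.05 in the authors' deposited DEXSeq table (1.83% of its bins). Without siTRA b, and likewise without CTL b, edgeR called 2 of the adjoining bins, and 977 and 563 of all bins.

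The 3-base part at chr4:113509672-113513328 had 44.9, 46.3 and 48.9 counts per 100 flanking counts in siTRA and 43.1, 44.6 and 41.0 in CGG_siTRA. All 6 knockdown libraries lay above the 3 CTL libraries, and siTRA overlapped with CGG. In siTRA it was higher than in CTL by 0.74 ± 0.13 on the log2 scale by edgeR (SE, adjusted p = 0.000623) and by 0.62 ± 0.07 by limma on the ratio (SE, adjusted p = 0.000938). Both calls held in all 6 fits that left out a library, siTRA b included. The authors' deposited DEXSeq table also called the part (0.74, adjusted p = 3.35e-12). So this part was higher than in CTL with the repeat alone, with raised TRA2A and with lowered TRA2A. Every CGG, GFP_TRA, siTRA and CGG_siTRA library (36.7 to 48.9) lay above the CTL libraries (29.3 to 31.2). The normalised count of its gene over bins was 16930 ± 697 in CTL, 17997 ± 899 in GFP_TRA and 11847 ± 439 in siTRA (SD, n = 3).

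At chr13:37022317-37024035 the 727-base bin had 163, 171 and 188 normalised counts in CTL and 173, 337 and 173 in siTRA, where the 337 is library b. The edgeR log2 change was 0.85 ± 0.16 (SE, adjusted p = 0.000119), and without siTRA b it was 0.61 (adjusted p = 0.105). At chr3:52688192-52689074 the 14-base donor-side bin had 56.9, 54.9 and 64.4 normalised counts in CTL and 116, 157 and 66.4 in siTRA. That edgeR change was 1.08 ± 0.23 (SE, adjusted p = 0.00183), 0.89 without siTRA b (adjusted p = 0.0453) and 1.02 without CTL b (adjusted p = 0.0568). That bin belongs to overlapping genes counted together, and its flanking bin is 2 bases long. In the CGG_siTRA libraries it had 112, 99.0 and 53.4 normalised counts.

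By limma on the ratio neither passed (adjusted p = 0.16 and 0.144). The authors' deposited DEXSeq table called both in siTRA vs CTL (adjusted p = 0.00591 and 0.0204).

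The fall was at chr5:148427722-148433424, where a 225-base donor-side bin had 238, 235 and 235 normalised counts in CTL and 181, 107 and 175 in siTRA. Its edgeR change of -0.65 ± 0.14 (SE, adjusted p = 0.00935) was -0.47 without siTRA b (adjusted p = 0.482), and it also missed the threshold without any 1 of the CTL libraries. Limma on the ratio gave -0.27 ± 0.11 (SE, adjusted p = 0.31), and the authors' deposited DEXSeq table -0.66 (adjusted p = 0.0632). The second limma call on the ratio was at chr9:83969380-83970162, on a 35-base acceptor-side bin of overlapping genes counted together. It had 74.2, 69.1 and 72.4 counts per 100 flanking counts in CTL, 79.7, 78.8 and 77.9 in CGG, 73.2, 78.3 and 86.7 in GFP_TRA, 87.3, 98.5 and 90.5 in siTRA and 95.1, 92.0 and 90.3 in CGG_siTRA. All 6 knockdown libraries lay above the other 9. The limma change was 0.36 ± 0.06 in siTRA vs CTL (SE, adjusted p = 0.0235) and 0.23 ± 0.06 in CGG_siTRA vs CGG (SE, adjusted p = 0.369). The first of these held in 2 of 6 limma fits without a library, and without siTRA b its adjusted p was 0.0948. By edgeR the bin was not called in siTRA vs CTL (0.21 ± 0.10, SE, adjusted p = 0.753). Nor was it in the authors' deposited DEXSeq table (0.20, adjusted p = 0.445).

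**Figure D4:**
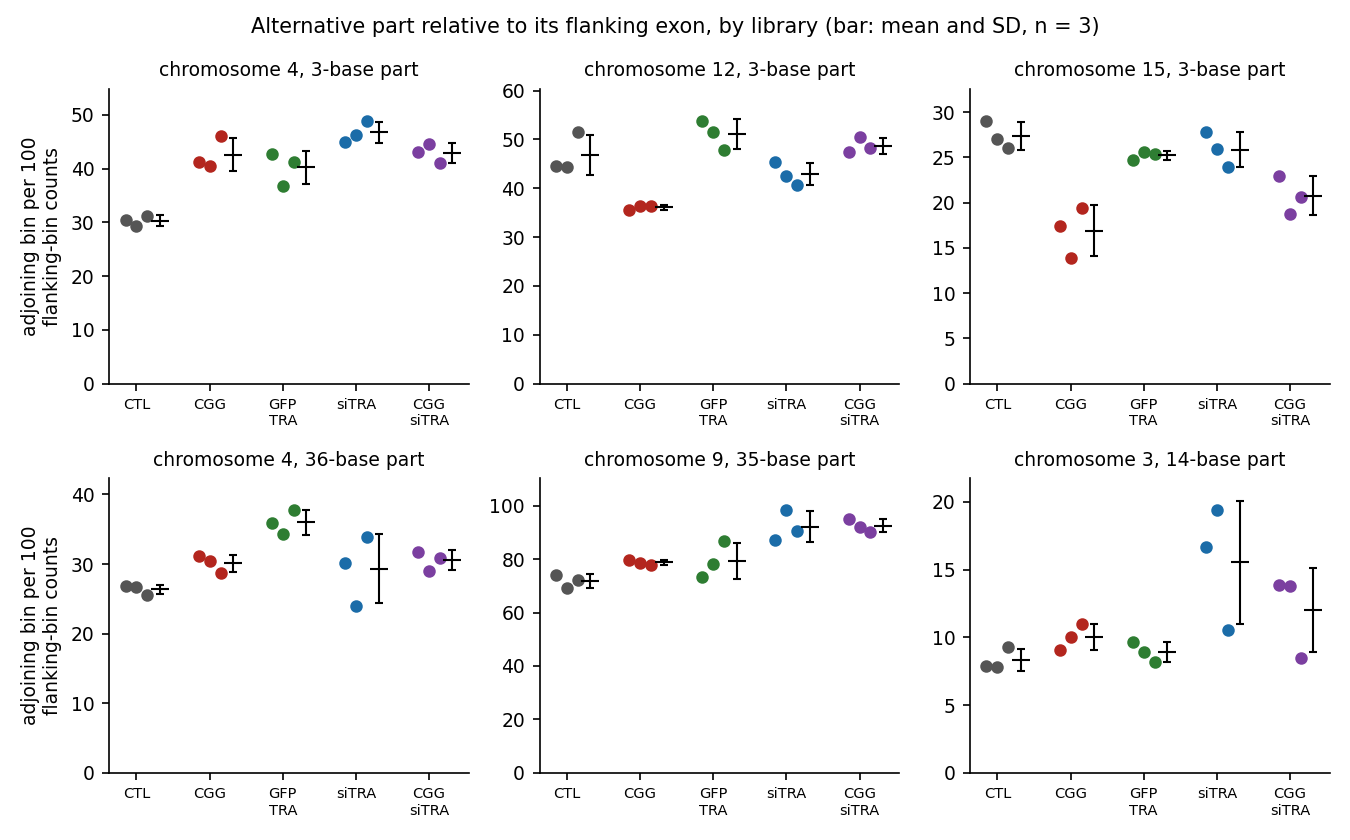
Counts of the adjoining bin per 100 counts of the flanking bin (y axis, from 0) in each of the 15 libraries for 6 events; coloured points are libraries and bars are the mean and SD of 3. On chromosome 4 the 3-base part is lowest in CTL (29.3 to 31.2), and on chromosome 9 the 35-base part is at 87.3 or more in the 6 knockdown libraries and at or under 86.7 in the other 9.

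CGG_siTRA vs CGG asks what the knockdown does in cells with the repeat. A single adjoining bin passed edgeR diffSpliceDGE, against 0.134% of all bins (0.101% higher). An unadjusted p under 0.05 was held by 22 members and 3.71% of all bins. The authors' deposited DEXSeq table had 30 of the 592 members under 0.05, a larger share than the 3.34% of all its bins. The bin called by edgeR was a 256-base donor-side bin at chr1:109236548-109237244, in an interval that bins cover from end to end. It had 55.7, 44.8 and 51.2 normalised counts in CGG, 102, 72.7 and 54.3 in CGG_siTRA and 73.0, 68.8 and 73.2 in CTL. Its edgeR log2 change of 1.08 ± 0.24 (SE, adjusted p = 0.013) passed in 1 of the 6 fits without a library. Limma on the ratio gave 1.13 ± 0.33 (SE), which did not pass (adjusted p = 0.45). The authors' deposited DEXSeq table called the bin (1.10, adjusted p = 0.029). The flanking bin had 2732 to 2988 counts in CGG and 1854 to 1984 in CGG_siTRA.

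Limma on the ratio called 1 of the 592 in the same comparison (0.0838% of 1193), the 3-base acceptor part at chr12:119690451-119697659. It had 44.4, 44.3 and 51.5 counts per 100 flanking counts in CTL, 35.5, 36.4 and 36.4 in CGG, 53.8, 51.6 and 47.8 in GFP_TRA, 45.4, 42.6 and 40.7 in siTRA and 47.4, 50.4 and 48.2 in CGG_siTRA. The 3 CGG libraries were below the other 12. By limma the CGG libraries were lower than CTL by a log2 change of -0.36 ± 0.06 (SE, adjusted p = 0.0273) and CGG_siTRA was higher than CGG by 0.42 ± 0.06 (SE, adjusted p = 0.0258). The part itself had 29.9 to 88.7 normalised counts per library, in overlapping genes counted together. The first call held in 1 and the second in 0 of 6 fits without a library. By edgeR over all bins neither passed, with -0.14 ± 0.25 and 0.30 ± 0.26 (SE) and an adjusted p of 1 for both. Nor did either pass in the authors' deposited DEXSeq tables (adjusted p = 0.896 and 0.456). In the authors' deposited tables PSI differed by -0.081 in CGG vs CTL (adjusted p = 0.675) and by 0.123 in CGG_TRA vs CGG (adjusted p = 0.139).

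CGG_siTRA vs siTRA asks what the repeat does when TRA2A is low. None of the 776 events was called in the authors' deposited table, against 0.0475% of all events, and 46 had an unadjusted p under 0.05 (5.93%, against 6.31% of all). A change in PSI of at least 0.1 was found in 12 events (1.55%, against 1.06% of all), 6 each way. The largest was -0.219 at chr11:64303839-64304543 (adjusted p = 0.176), and others were 0.170 at chr5:178941386-178942685 (adjusted p = 0.177) and -0.104 at chr2:134946146-134947736 (adjusted p = 0.176).

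In both of the last, siTRA b was the extreme library. The chromosome 5 part had 38.9, 19.7 and 35.5 counts per 100 flanking counts in siTRA and 46.8, 37.6 and 40.6 in CGG_siTRA. The chromosome 2 part had 59.4, 77.8 and 50.8 in siTRA and 47.6, 55.0 and 49.2 in CGG_siTRA. The other changes named were -0.124 at chr7:81997235-82005423, -0.104 at chr11:47285065-47285451 and 0.106 at chr20:1934754-1937320, with adjusted p of 0.527, 0.539 and 0.598. No adjoining bin passed edgeR diffSpliceDGE (0.0336% of all bins did), and 29 of the 592 had an unadjusted p under 0.05, against 4.97% of all bins. Of the adjoining bins 3 passed limma diffSplice and 0 limma on the ratio. Without siTRA b those 29 became 11 and the count over all bins went from 13159 to 6120, while without siTRA c the 29 became 44. No member passed edgeR without siTRA b, and 2 did without siTRA c. Over all 264710 bins these fits passed 1 and 516, and limma diffSplice passed 4457.

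CGG_TRA vs CGG asks what raised TRA2A does in cells with the repeat. The single called event of 776 (0.129%, against 0.412% of all, 0.285% higher) was the chromosome 4 event with the 36-base part, which rose. A change of at least 0.1 was found in 4 events (0.515%, against 0.982% of all). An unadjusted p under 0.05 was held by 38 members (4.90%, against 8.13% of all). Of these 30 were higher and 5 lower, and over all 6311 events 344 were higher and 124 lower. The 3 changes of at least 0.1 that were not called were 0.123 at chr12:119690451-119697659 (adjusted p = 0.139), -0.131 at chr3:52151100-52154355 (adjusted p = 0.815) and -0.132 at chr20:35734257-35738968 (an adjusted p of 1).

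CGG_TRA vs CGG_siTRA sets raised against lowered TRA2A in cells with the repeat. Of the 776 events 2 were called in the authors' deposited table (0.258%, against 0.713% of all), both higher (0.475% of all events were). By the strand of the gene alone, both were on the acceptor side. An unadjusted p under 0.05 was held by 47 members (6.06%, against 8.87% of all) and a change of at least 0.1 by 7 (0.902%, against 1.95%). At chrX:47657285-47657572 PSI rose by 0.096 (adjusted p = 0.001), at a site inside an exon bin. At chr11:17075163-17075454 it rose by 0.025 (adjusted p = 0.0261), where the ratio of the 2 bins was between 99.8 and 102 counts per 100 in all 15 libraries. The bins there belong to overlapping genes counted together. Changes of -0.129 at chr17:19379947-19380608 and -0.115 at chrX:134785947-134787472 were not called (adjusted p = 0.569 and 0.749).

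Of the pairs of tables that share no sample, 3 were compared and others were not. Over the members the changes had little or no common order in any of the 3. For GFP_TRA vs CTL and CGG_TRA vs CGG, both of raised TRA2A, the changes in PSI had the same sign in 365 of the 684 events that were not at 0 (53.4%), with Pearson's r of 0.074 and Spearman's rho of 0.059 across events. GFP_TRA vs CTL set beside CGG_TRA vs CGG_siTRA gave the highest of the 3, with the same sign in 383 of 684 (56.0%), r of 0.184 and rho of 0.123. For CGG vs CTL and CGG_siTRA vs siTRA, both of the added repeat, the sign was shared by 345 of 684 (50.4%), with r of 0.019 and rho of 0.023. These are descriptions across events, which are not replicates, and most of the changes are near 0.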

How the data were processed

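Members and lists were chosen with earlier results of these data known. Per the submitters' processing notes, the tools were cutadapt 1.14, STAR 2.5.2 and DESeq2 and the build GRCh38.p10, so monkey reads were set on human gene models, and bases that differ between the species can lower counts near a site. The authors deposited raw counts per exon bin with p-values and log2 fold changes (DEXSeq), a normalised signal per bin (counts over 1 factor per library), and EventPointer p-values, z scores and changes in PSI, per the file headers. Whole reads came back from 100% of the normalised values (tolerance 0.1 read). They filled 1623 values that the DEXSeq tables do not list.

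The main test was edgeR 4.0.16 diffSpliceDGE on the counts of all 15 libraries with TMM factors of gene sums, over the 264710 bins with at least 10 normalised counts in 3 libraries in genes with at least 2 such bins. Limma 3.58.1 diffSplice and limma on log2((adjoining bin + 1)/(flanking bin + 1)), with the authors' factors, were alternatives, in R 4.3.3. All p-values were Benjamini-Hochberg adjusted. Counts were simulated for CGG vs CTL over 264710 bins, with changes only in bins averaging at least 50 normalised counts. Every bin was given the trended dispersion, so no extra spread of single bins or libraries was included. On these counts edgeR recovered 90.7% of the 2-fold and 33.7% of the 1.5-fold changes. Limma diffSplice called 1943 bins there, 1777 of them in unchanged genes. The text names, per comparison, up to 6 called events of largest change, or called ones and then those of smallest p with a change of 0.1 or more. In the bins it names called ones with a mean of at least 50 counts in the higher group and no overlap in the ratio. Events called by limma on the ratio were added after their values were seen. None of 23134 gene identifiers could be paired with a symbol, so the lists of splice site recognition genes and cell type markers were not tested.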

Additional observations from a re-analysis of the deposited data

Results flagged for a closer look

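In 2 of the 592 events the change of a 3-base acceptor part with the knockdown differed between cells with and without the repeat. This was by a limma interaction on the log2 ratio added after the data were seen (0.168% of 1193 events passed). Without the repeat the knockdown is set against CTL, so transfection itself cannot be told apart from it. With the repeat both groups were transfected, but CGG had no control siRNA, so adding an siRNA cannot be told apart from the knockdown there either. At chr4:113509672-113513328 the part was higher in siTRA than in CTL by 0.62 and in CGG_siTRA than in CGG by 0.01, a difference of -0.61 ± 0.09 (SE, limma adjusted p = 0.0355). At chr12:119690451-119697659 the change was -0.11 without the repeat and 0.42 with it, a difference of 0.54 ± 0.09 (SE, limma adjusted p = 0.0355). Without siTRA b neither passed (limma adjusted p = 0.114 and 0.116). Of 12 fits that each left out a library, 2 passed at the first event and 3 at the second, and the difference stayed between -0.64 and -0.55 at the first and between 0.47 and 0.58 at the second.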

How the results depend on the processing

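No paired analysis was possible because library numbers in the count columns match no replicate number of the titles. The lists of splice site recognition genes were not run.

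Adjoining bins passing edgeR diffSpliceDGE numbered 0, 0, 4, 1 and 0 in CGG vs CTL, GFP_TRA vs CTL, siTRA vs CTL, CGG_siTRA vs CGG and CGG_siTRA vs siTRA. They were the same with the authors' size factors and with minimums of 1 and 50 counts (562 members tested at 50). In the same order they were 0, 1, 8, 2 and 3 by limma diffSplice, where 3383, 3314, 6077, 2876 and 4457 of all 264710 bins passed. They were 3, 1, 2, 1 and 0 by limma on the ratio. With only the pair of groups fitted they were 12, 3, 3, 1 and 0, where 3201, 2107, 621, 634 and 1 of all bins passed. The authors' deposited DEXSeq tables gave 24, 14, 22 and 30 of 592 in the first 4, where 2.0%, 1.32%, 1.83% and 3.34% of all their bins passed. The share of members was the larger in each of these. Leaving out 1 library gave 0 to 0, 0 to 0, 2 to 5, 0 to 1 and 0 to 2. Over all bins these fits gave 251 to 454, 260 to 1433, 563 to 1591, 65 to 546 and 1 to 759. The 0 in CGG_siTRA vs CGG came without any 1 library but CGG_siTRA c. Without events covered by bins the counts were 0, 0, 4, 0 and 0. The causes were not tested.

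Calls in the authors' deposited EventPointer tables numbered 5, 8, 0, 1 and 2 in CGG vs CTL, GFP_TRA vs CTL, CGG_siTRA vs siTRA, CGG_TRA vs CGG and CGG_TRA vs CGG_siTRA. They were 14, 17, 13, 11 and 20 at an unadjusted p under 0.01 and 39, 29, 46, 38 and 47 under 0.05. With a change in PSI of at least 0.1 beside the adjusted p they were 3, 5, 0, 1 and 0. Over all 6311 events the unadjusted p was under 0.01 in 216, 232, 132, 187 and 229, and under 0.05 in 485, 516, 398, 513 and 560. Both the adjusted p and the change were met by 33, 29, 2, 4 and 13 of all events.

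None of the 5 bins called by edgeR and the 9 values called by limma on the ratio changed sign under the alternatives run for them. Some uncalled values differed in sign between edgeR and the ratio, among them chr1:203861743-203862182 in GFP_TRA vs CTL (0.10 against -0.33) and chr9:83969380-83970162 in CGG vs CTL (-0.04 against 0.13) and GFP_TRA vs CTL (-0.03 against 0.14). With a pseudocount of 10 all 9 values called by limma on the ratio passed. Parts with fewer than about 50 counts per library limit what the ratio can show.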
